A study of Homo sapiens with 6 samples.

Results

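The 10 genes of the TRAIL and FAS death receptor system were followed in human umbilical vein endothelial cells (HUVECs) after transfection with an siRNA against ANRIL, set against cells given a scrambled control siRNA. The genes encode the ligand TRAIL (TNFSF10), the death receptors TNFRSF10A, TNFRSF10B and FAS, the decoy receptors TNFRSF10C, TNFRSF10D and TNFRSF11B, the adaptor FADD, the initiator caspase CASP8 and its regulator CFLAR. All probe sets annotated to exactly 1 of these symbols were taken, which gave 41 of the 54613 probe sets tested and 10 of 19775 genes. The choice of genes was made with differences between these 2 groups already known, so the differences between the groups are given as a description and support nothing.

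ANRIL (symbol CDKN2B-AS1) is transcribed without coding for protein from chromosome 9, beside CDKN2A and CDKN2B. Each group had 3 arrays of total RNA, from cells transfected with ANRIL siRNA or with control scrambled siRNA. Both groups were HUVECs bought from Lonza and grown in endothelial medium with fetal bovine serum, hydrocortisone, heparin, ascorbic acid, antibiotics and growth factors (FGF, EGF, VEGF and IGF), and both were transfected transiently with TransIT-X2. Whether the 3 samples of a group came from separate donors or cultures is not given in the sources used here, nor is the time after transfection. The p-values therefore set differences against the variation between these samples, and whether they extend to other cultures or donors is not known. RNA was hybridised to Affymetrix Human Genome U133 Plus 2.0 arrays, and the values are log2 intensities from RMA, a method that corrects background, normalizes between arrays and summarises the probes of a set.

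TRAIL is a membrane-bound or shed ligand of the tumour necrosis factor (TNF) superfamily. When it binds TNFRSF10A or TNFRSF10B, or when FAS ligand binds FAS, the receptor's intracellular death domain recruits FADD, which in turn recruits procaspase-8. Caspase-8 then activates executioner caspases, and CFLAR (c-FLIP), a caspase-8 relative without protease activity of its own, regulates this step. TNFRSF10C and TNFRSF10D bind TRAIL without a complete death domain, and TNFRSF11B (osteoprotegerin) is a secreted receptor that binds both RANKL and TRAIL. Endothelial cells are known to carry TRAIL receptors and to be largely resistant to killing by TRAIL, and TNFSF10 is known as an interferon-induced gene.

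The agent that separates the groups is shown first, since every difference below is a difference between cells with and without it. The ANRIL siRNA is given in the labels as a duplex, written here 5′ to 3′ with the paired bases in capitals.
sense strand: GGAUAUGUGCCAUGAGUAAGAAUAA
antisense strand: UUAUUCUUACUCAUGGCACAUAUCCau
The sense strand had 25 bases and the antisense strand 27, of which 25 were complementary to the sense strand and 2 were unpaired at the 3′ end. The sequence of the scrambled control was not used here.

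Of the 10 genes, TNFSF10 differed most, and its promoter window is therefore printed. The RefSeq window runs from 250 bases before to 50 bases after the start of the gene, at chr3:172523381-172523680 (GRCh38.p14, minus strand), and is written 5′ to 3′ in the direction of transcription. Capitals mark 2 motif matches.
TNFSF10 promoter: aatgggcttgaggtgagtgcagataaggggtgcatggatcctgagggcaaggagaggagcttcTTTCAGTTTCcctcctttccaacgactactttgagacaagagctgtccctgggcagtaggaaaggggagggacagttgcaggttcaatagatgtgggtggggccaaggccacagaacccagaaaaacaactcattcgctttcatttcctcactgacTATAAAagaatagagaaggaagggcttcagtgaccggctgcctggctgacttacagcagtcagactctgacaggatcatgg
The first match is to GAAA, any 2 bases and GAAA again, the core of the interferon-stimulated response element (ISRE), read on the opposite strand 187 bases before the start. The second is to TATAAA, the TATA box core, 31 bases before the start, and the matches do not overlap each other. Both strands of 35116 RefSeq windows of the same length were searched, and 3.57% held the ISRE core and 11.5% held TATAAA. Among the other members with a window, the ISRE core was found in 0 of 3 windows of FAS, 0 of 1 of FADD, 1 of 3 of CASP8 and 0 of 4 of CFLAR. GGGCGG, the GC box, was in 0 of 1 windows of TNFSF10, 3 of 3 of FAS, 1 of 1 of FADD, 1 of 3 of CASP8 and 2 of 4 of CFLAR, against 45% of all windows. The forkhead core TGTTTAC (3.42% of all windows) and the AP-1 core TGANTCA (7.71%) had no match in the TNFSF10 window. A match describes letters and not a site in use.

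Array medians lay between 6.14 and 6.23. Across probe sets, not independent of each other, the r of 2 arrays was 0.9971 to 0.9977 inside a group and 0.9964 to 0.9974 from one group to the other. The probe set of ANRIL itself lay at the 9.39 percentile of mean signal, with values of 3.69, 4.05 and 4.05 in ANRIL siRNA cells and 4.08, 4.05 and 3.95 in control siRNA cells. The groups overlapped there, so the arrays gave no check of the knockdown. Bright probe sets were in general lower in ANRIL siRNA cells and dim ones higher, with a median log2 difference of −0.08 in the brightest decile and 0.06 in the fourth. The 3′ minus 5′ signal of the ACTB control, a sign of RNA integrity, was 0.564 to 0.807 in ANRIL siRNA cells and 0.487 to 0.589 in control siRNA cells (difference 0.17, exact two-sided permutation test p = 0.2, with 0.1 the lowest p possible for 3 against 3). For GAPDH the difference was 0.06 with groups that did not overlap (exact two-sided permutation test p = 0.1). The part of RNA integrity in the results below was not tested.

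HUVEC identity was read from endothelial markers, all 10 of which lay at or above the 87.9 percentile of mean signal. They were lower in ANRIL siRNA cells at 10 of 10, with a median of −0.17, and 5 were called by limma with the trended robust prior introduced below. All 10 lay in the brightest signal decile or the decile below it. In these deciles 12.9% and 20.7% of all probe sets were higher in ANRIL siRNA cells, with medians of −0.08 and −0.07. After cyclic loess 9 of 10 markers were lower, with a median of −0.10, and 3 were called with that prior. Of all genes, that prior called 2.15% lower as deposited and 0.379% lower after cyclic loess. The summed linear intensity of endothelial markers, as deposited, was 36890 to 39490 in ANRIL siRNA cells and 41300 to 44160 in control siRNA cells. Of 8 leukocyte markers 7 were measured, at the 14.7 (PTPRC) to the 71.6 percentile (CD3E). Their sum was 516.9 to 561.6 in ANRIL siRNA cells and 457.4 to 494 in control siRNA cells, with 6 of 7 higher. The markers of smooth muscle (3 of 6 lower), fibroblasts (4 of 5 lower) and epithelium (3 of 5 lower) had medians of 0.07, −0.08 and −0.02. Smooth muscle markers lay at the 43 to 92.9 percentiles and summed to 2438 to 2522 in ANRIL siRNA cells and 2699 to 2879 in control siRNA cells. Fibroblast markers lay at the 3.52 (LUM) to 87.8 percentiles (COL1A1) and summed to 926.3 to 1013 in ANRIL siRNA cells and 891 to 931.1 in control siRNA cells. Epithelial markers lay at the 16.3 (CDH1) to 97.2 percentiles (KRT18) and summed to 3680 to 3777 in ANRIL siRNA cells and 4102 to 4417 in control siRNA cells. With the trended robust prior limma called ACTA2 of the smooth muscle markers (−0.26 ± 0.06, adjusted p = 0.0130) and KRT18 of the epithelial markers (−0.20 ± 0.06, adjusted p = 0.0214) lower, and after cyclic loess with that prior 0 of either list. The part of these lists in the results below was not tested. In bulk RNA, fewer cells of a type and less RNA per cell cannot be told apart.

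TRAIL was lower in ANRIL siRNA cells at all 3 of its probe sets, by 1.38-fold to 1.65-fold. At the brightest, 202688_at, the log2 values were 7.18, 7.06 and 6.86 in ANRIL siRNA cells, against 7.58, 7.86 and 7.56 in control siRNA cells. Every ANRIL siRNA array lay below every control array, and the gap between the groups was 0.38. ANRIL siRNA minus control siRNA came to −0.63 ± 0.10 (SE, 3 arrays per group) with a 95% interval of −0.87 to −0.40, or a change of −35.6% in linear signal.

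The other TRAIL probe sets gave the same picture. At 202687_s_at the values were 6.62, 6.23 and 6.37 in ANRIL siRNA cells, against 7.27, 7.06 and 7.06 in control siRNA cells. The difference was −0.72 ± 0.10 (95% interval −0.95 to −0.49), with a gap of 0.44 between the groups. At 214329_x_at the values were 6.91, 6.88 and 6.90 in ANRIL siRNA cells, against 7.42, 7.32 and 7.34 in control siRNA cells. Here the arrays of each group lay closest together, with an SD of 0.0170 in ANRIL siRNA cells and 0.0571 in control siRNA cells, and the difference was −0.46 ± 0.06. With each array left out in turn, the difference ranged from −0.71 to −0.54 at 202688_at, from −0.83 to −0.63 at 202687_s_at and from −0.49 to −0.43 at 214329_x_at.

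Among all 54613 probe sets, 4 had a difference at or below that of 202687_s_at, 10 at or below that of 202688_at and 54 at or below that of 214329_x_at, each count including the probe set itself. Their mean signals lay between the 59.9 and 68.1 percentiles, where the typical probe set differed by 0.05 and 0.02 (medians of the sixth and the seventh signal deciles). Cyclic loess and a further quantile normalization each gave −0.64 at 202688_at.

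**Figure D1:**
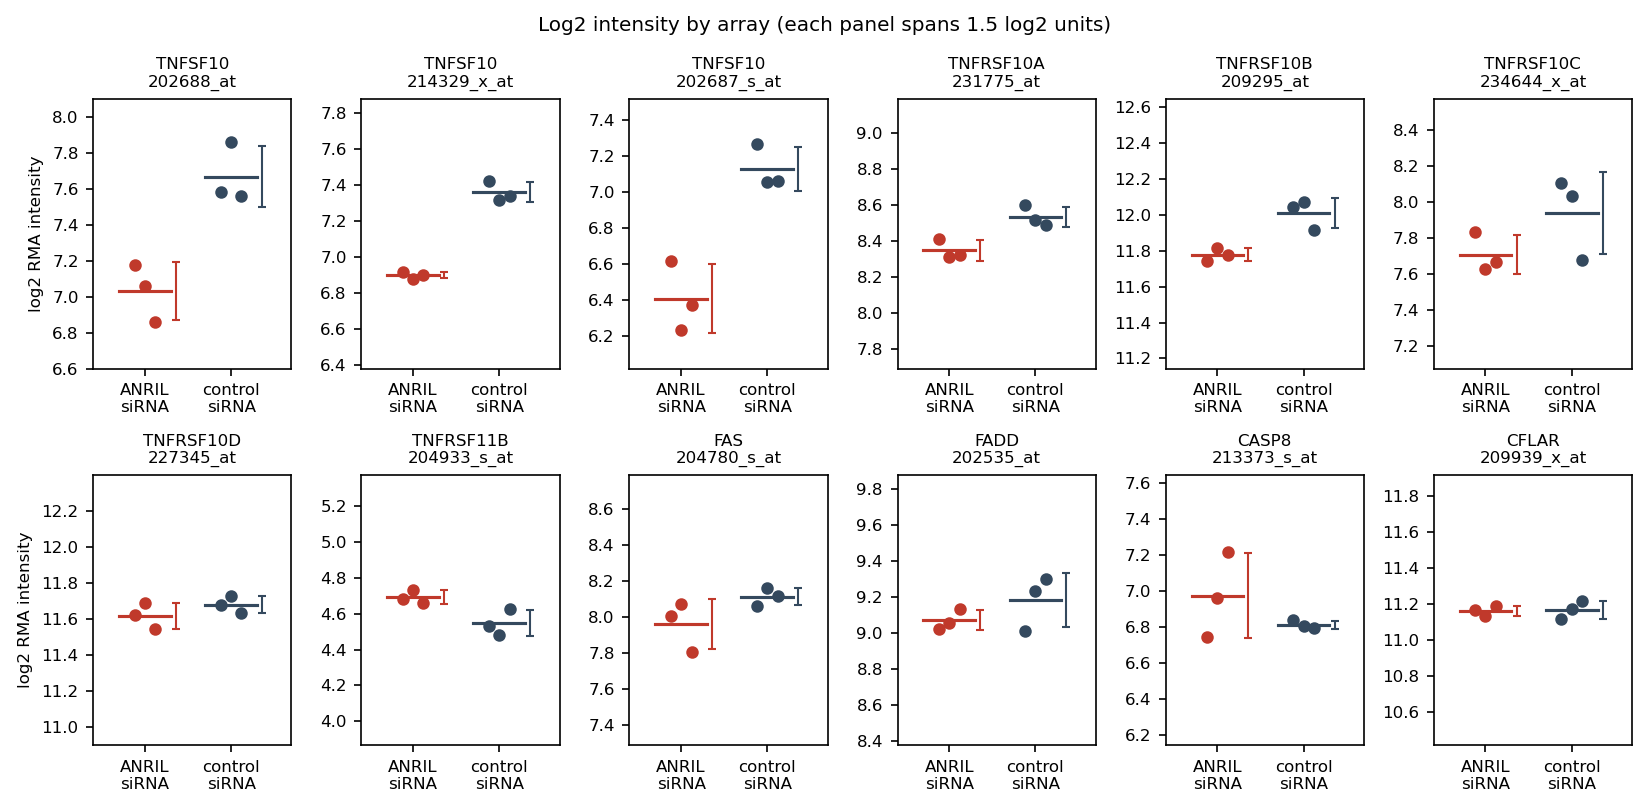
Log2 RMA intensity (vertical axis, 1.5 log2 units in every panel) on each array for the 3 TNFSF10 probe sets and the brightest probe set of each other member. Points are arrays, horizontal lines are group means and the bars beside them are ± 1 SD (n = 3 per group), with ANRIL siRNA on the left and control siRNA on the right. All 3 TNFSF10 panels show separate groups, while the arrays overlap for TNFRSF10C, TNFRSF10D, FAS, FADD, CASP8 and CFLAR.

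The fit across the whole array was made with limma and a constant prior on the variance. It called 0% of the 54613 probe sets at an adjusted p under 0.05 and accordingly 0 of the 41 member probe sets, whose adjusted p-values lay between 0.22 and 0.984. At an unadjusted p under 0.05 the limma fit listed 15.1% of all probe sets and 10 of the 41. With a prior that follows the trend of variance with signal and is robust to outlying variances, limma called 0.577% of all probe sets lower and 0.0531% higher, and of the members 4 lower and 0 higher. These were the 3 TNFSF10 probe sets, with adjusted p-values of 0.00931 at 202688_at, 0.00575 at 202687_s_at and 0.0124 at 214329_x_at, and TNFRSF10B at 209295_at with 0.0322. After cyclic loess with that prior, 0.106% of all probe sets were called lower and 0.0366% higher, and the members called were the 3 TNFSF10 probe sets. The calls depended on single arrays. Without control siRNA replicate 2 and with that prior, 0 member probe sets were called, and the adjusted p-values of TNFSF10 were 0.0997 at 202688_at, 0.0577 at 202687_s_at and 0.0918 at 214329_x_at. The same 3 probe sets were read on all arrays and share their RNA, so they are not independent replicates.

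Of the 41 member probe sets, 28 were lower and 13 higher, where 46.1% of all probe sets were lower and 53.9% higher. Groups that did not overlap were seen at 11 with ANRIL siRNA lower and at 1 with ANRIL siRNA higher, against 9.97% and 11% of all probe sets. The median difference was −0.06 over the members and 0.01 over all probe sets. Above the median signal, 25 of 32 member probe sets were lower and 10 did not overlap in that direction, where 61% and 17.2% of all such probe sets did so. Without TNFSF10, 25 of 38 were lower (65.8%) and 8 did not overlap in that direction (21.1%). Of the 38, 29 lay above the median signal, where the shares of all probe sets were the 61% and 17.2% just given. After cyclic loess 22 of the 38 were lower, against 50.1% of all probe sets. The 8 lay in TNFRSF10A, TNFRSF10B, TNFRSF10C, TNFRSF10D and FAS, all of them receptors, and 0 of 18 lay in FADD, CASP8 or CFLAR.

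**Figure D2:**
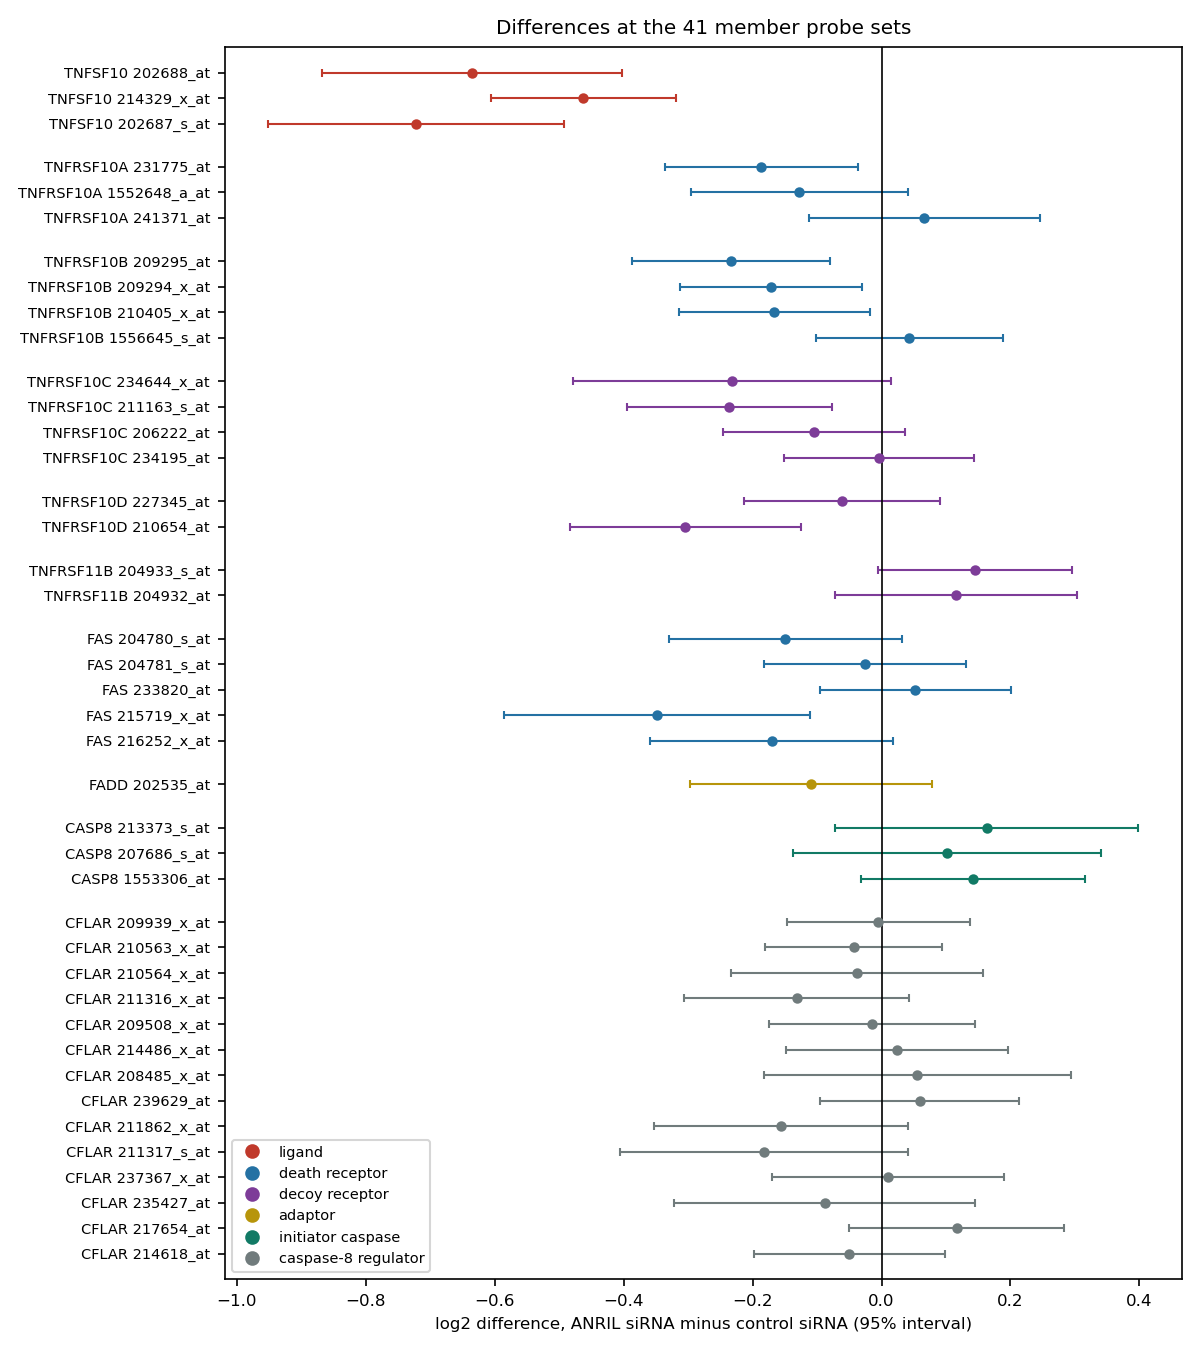
Log2 difference, ANRIL siRNA minus control siRNA (horizontal axis), with its 95% interval from limma at each of the 41 member probe sets, grouped by gene and coloured by role. The 3 TNFSF10 intervals lie farthest below 0, 15 of 20 receptor probe sets lie below 0, and the intervals of FADD, CASP8 and CFLAR all include 0.

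Among the death receptors for TRAIL, TNFRSF10B (DR5) was lower at 3 of 4 probe sets and the groups did not overlap at those 3. At its brightest, 209295_at, which lies at the 97.7 percentile of signal, the values were 11.74, 11.82 and 11.77 in ANRIL siRNA cells, against 12.04, 12.07 and 11.92 in control siRNA cells. The gap between the groups was 0.10 and the difference −0.23 ± 0.07. In the brightest decile the median probe set differed by −0.08, and 206 of 5462 had a difference at or below that of 209295_at. Both cyclic loess and a further quantile normalization left −0.15, over 1.5 times smaller.

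The next TNFRSF10B probe sets differed by −0.17 ± 0.06 at 209294_x_at and −0.17 ± 0.07 at 210405_x_at. The dimmest, 1556645_s_at at the 40.7 percentile, had 5.75, 5.69 and 5.65 in ANRIL siRNA cells, against 5.69, 5.60 and 5.67 in control siRNA cells. These groups overlapped, the difference was 0.04 ± 0.07, and it was −0.02 after cyclic loess. Within an array, the log2 difference between 209295_at and 1556645_s_at was 5.99 to 6.13 in ANRIL siRNA cells. In control siRNA cells it was 6.25 to 6.47, with no overlap. The median of all probe sets was −0.08 in the signal decile of 209295_at and 0.06 in that of 1556645_s_at, a gap in the same direction. The part of this trend with signal in the contrast was not tested.

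TNFRSF10A (DR4), the other death receptor for TRAIL, was lower at 2 of 3 probe sets. At 231775_at the values were 8.41, 8.31 and 8.32 in ANRIL siRNA cells, against 8.60, 8.52 and 8.48 in control siRNA cells. The groups were separate by 0.07, and the difference of −0.19 ± 0.07 became −0.14 after cyclic loess. The groups overlapped at 1552648_a_at (−0.13 ± 0.08) and at 241371_at (0.07 ± 0.08). At 241371_at the 3 ANRIL siRNA arrays, at 7.50, 7.50 and 7.53, lay within the range of the control arrays, at 7.30, 7.59 and 7.43.

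FAS was read by 5 probe sets, of which 4 were lower, and the groups were separate at 1. At the brightest, 204780_s_at, the values were 8.01, 8.07 and 7.81 in ANRIL siRNA cells, against 8.06, 8.16 and 8.12 in control siRNA cells. The groups overlapped, since ANRIL siRNA replicate 2 stood above control replicate 1, and the difference was −0.15 ± 0.08. At 215719_x_at the values were 5.95, 5.97 and 5.93 in ANRIL siRNA cells, against 6.38, 6.48 and 6.03 in control siRNA cells. That difference of −0.35 ± 0.11 rested on control arrays with an SD of 0.238, and it was −0.25 without control replicate 2 and −0.48 without control replicate 3. The other FAS probe sets differed by −0.03 ± 0.07 at 204781_s_at, 0.05 ± 0.07 at 233820_at and −0.17 ± 0.08 at 216252_x_at. After cyclic loess 233820_at lay at −0.00124.

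The decoy receptors of the cell surface were lower at all 6 probe sets of TNFRSF10C and TNFRSF10D, and groups were separate at 3. For TNFRSF10C (DcR1), a receptor anchored in the membrane by glycolipid, 211163_s_at had 7.44, 7.29 and 7.24 in ANRIL siRNA cells, against 7.54, 7.56 and 7.58 in control siRNA cells. The difference was −0.24 ± 0.07 and the gap 0.10. The brightest probe set, 234644_x_at, had 7.83, 7.63 and 7.67 in ANRIL siRNA cells, against 8.10, 8.04 and 7.68 in control siRNA cells. Those groups overlapped because control replicate 3 lay with the ANRIL siRNA arrays, and the difference of −0.23 ± 0.11 was −0.36 without that array. TNFRSF10C differed by −0.10 ± 0.06 at 206222_at, where the groups were separate by 0.02, and by −0.0037 ± 0.07 at 234195_at.

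The probe sets of TNFRSF10D (DcR2), which carries a truncated death domain, differed from each other. At 227345_at, a bright probe set at the 97.2 percentile, the values were 11.62, 11.69 and 11.54 in ANRIL siRNA cells, against 11.67, 11.73 and 11.63 in control siRNA cells. The groups overlapped and the difference of −0.06 ± 0.07 changed sign, to 0.02 with cyclic loess and 0.03 with a further quantile normalization. At 210654_at the values were 6.57, 6.49 and 6.74 in ANRIL siRNA cells, against 6.91, 6.96 and 6.83 in control siRNA cells, a difference of −0.30 ± 0.08 with a gap of 0.09. Within an array, 227345_at exceeded 210654_at by 5.05, 5.20 and 4.80 in ANRIL siRNA cells and by 4.76, 4.77 and 4.80 in control siRNA cells. ANRIL siRNA replicate 3 was nearly level with the controls in this contrast, so most of the contrast came from the other ANRIL siRNA arrays.

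TNFRSF11B (osteoprotegerin), the secreted decoy, was the receptor gene with all probe sets higher, though both were dim, at the 14.5 and 21.3 percentiles. At 204933_s_at the values were 4.68, 4.73 and 4.66 in ANRIL siRNA cells, against 4.53, 4.48 and 4.63 in control siRNA cells. The groups were separate by 0.03 and the difference was 0.15 ± 0.07 (95% interval −0.01 to 0.30), where the typical probe set of like signal differed by 0.06. At 204932_at the groups overlapped and the difference was 0.12 ± 0.08. After cyclic loess the values were 0.09 at 204933_s_at and 0.06 at 204932_at.

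The TRAIL receptors TNFRSF10A to TNFRSF10D are related in sequence and lie together with TNFRSF11B on chromosome 8. Of the 41 member probe sets, 15 carry the suffix x, which Affymetrix gives to sets with probes that may also bind other transcripts, so signal at these may not come from the named gene alone. Over the 13 probe sets of the 4 membrane TRAIL receptors, 11 were lower and 7 did not overlap in that direction. Over all probe sets the shares were 46.1% and 9.97%. Of the 13, 12 lay above the median signal, where 61% and 17.2% of all probe sets did so. The median of the 13 was −0.17 as deposited and −0.12 after cyclic loess.

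For the members that act inside the cell, the groups overlapped at all 18 probe sets. FADD, the adaptor, was read by 202535_at alone, with 9.03, 9.06 and 9.14 in ANRIL siRNA cells, against 9.01, 9.23 and 9.30 in control siRNA cells. The groups overlapped, since control replicate 1 was the lowest of the 6 arrays. The difference of −0.11 ± 0.08 (95% interval −0.30 to 0.08) was −0.19 without control replicate 1 and −0.05 without control replicate 3, and −0.04 after cyclic loess.

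CASP8 was higher at all 3 probe sets, with overlapping groups at each. At 213373_s_at the values were 6.75, 6.96 and 7.22 in ANRIL siRNA cells, against 6.84, 6.80 and 6.79 in control siRNA cells. The ANRIL siRNA arrays spread widely (SD 0.235) around tight controls (SD 0.0234), with replicate 3 highest and replicate 1 below every control. The difference was 0.16 ± 0.11 (95% interval −0.07 to 0.40) and ranged from 0.04 to 0.28 with each array left out in turn. The dimmer CASP8 probe sets differed by 0.10 ± 0.11 at 207686_s_at and 0.14 ± 0.08 at 1553306_at, and all 3 stayed above 0 after cyclic loess.

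CFLAR had the most probe sets, 14, of which 9 were lower and 5 higher, and the groups overlapped at all 14. At the brightest, 209939_x_at, the values were 11.17, 11.13 and 11.19 in ANRIL siRNA cells, against 11.12, 11.17 and 11.22 in control siRNA cells. The difference was −0.01 ± 0.06 with a 95% interval of −0.15 to 0.14, so a change as large as that of TRAIL lay outside the interval. The 14 differences ran from −0.18 ± 0.10 at 211317_s_at to 0.12 ± 0.07 at 217654_at, with a median of −0.03. After cyclic loess 5 of 14 were lower and 209939_x_at was at 0.08. The gene makes long and short isoforms, and which isoform each probe set reads was not analysed here.

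**Figure D3:**
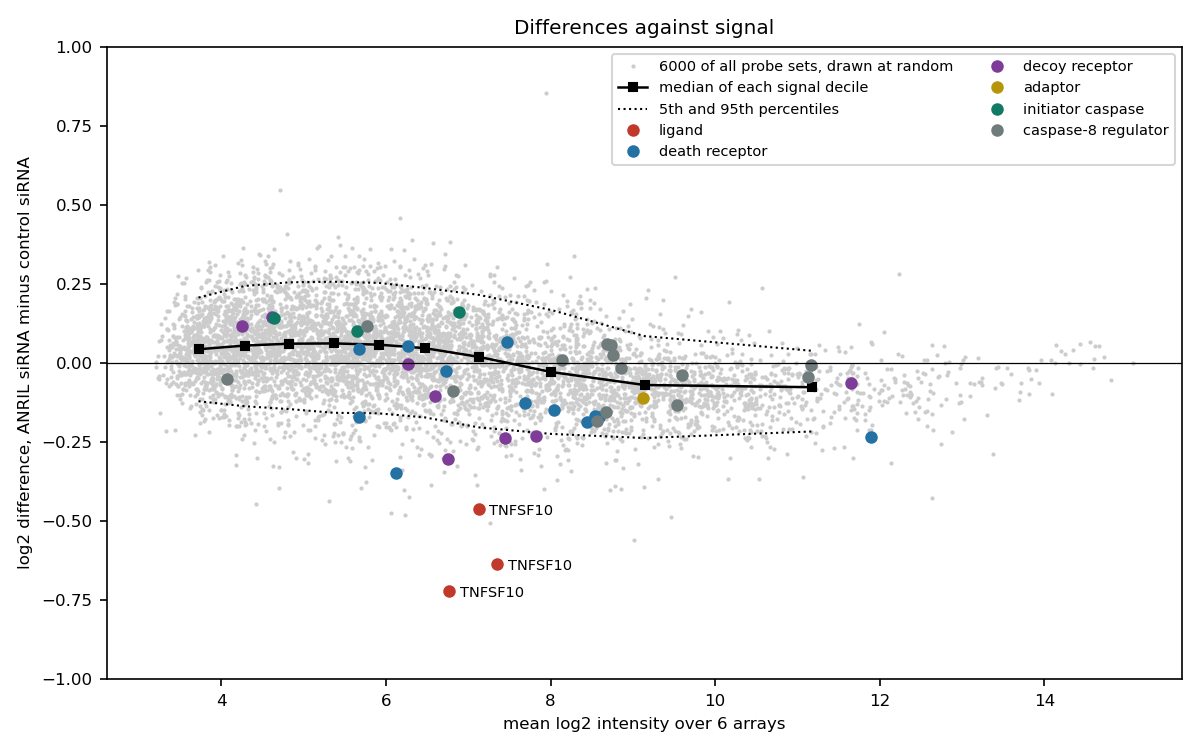
Log2 difference, ANRIL siRNA minus control siRNA (vertical axis), against the mean log2 intensity over 6 arrays (horizontal axis) for the 41 member probe sets, coloured by role, over a random draw of 6000 of the 54613 probe sets in grey. The black line joins the medians of 10 signal deciles, which pass from 0.06 in the fourth to −0.08 in the brightest, and the dotted lines are the 5th and 95th percentiles. The 3 TNFSF10 points lie far below the dotted line, while the CFLAR points lie around the medians.

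The scale of the arrays mattered more for bright members than for TRAIL. Centring each array on its median moved every difference down by 0.05, and the median of all probe sets from 0.01 to −0.04. Under that scaling 31 of 41 member probe sets were lower. With quantile normalization repeated 24 were lower, and the median of all probe sets was 0.00325. After cyclic loess 25 were lower, against 50.1% of all probe sets. The share of all probe sets that were lower was not counted under the centring or the repeated quantile normalization. The brightest probe sets of TNFRSF10D and CFLAR changed sign between scalings, and those of TNFSF10, TNFRSF10A, TNFRSF10B, TNFRSF10C, TNFRSF11B, FAS, FADD and CASP8 kept theirs under the 3 other scalings run.

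**Figure D4:**
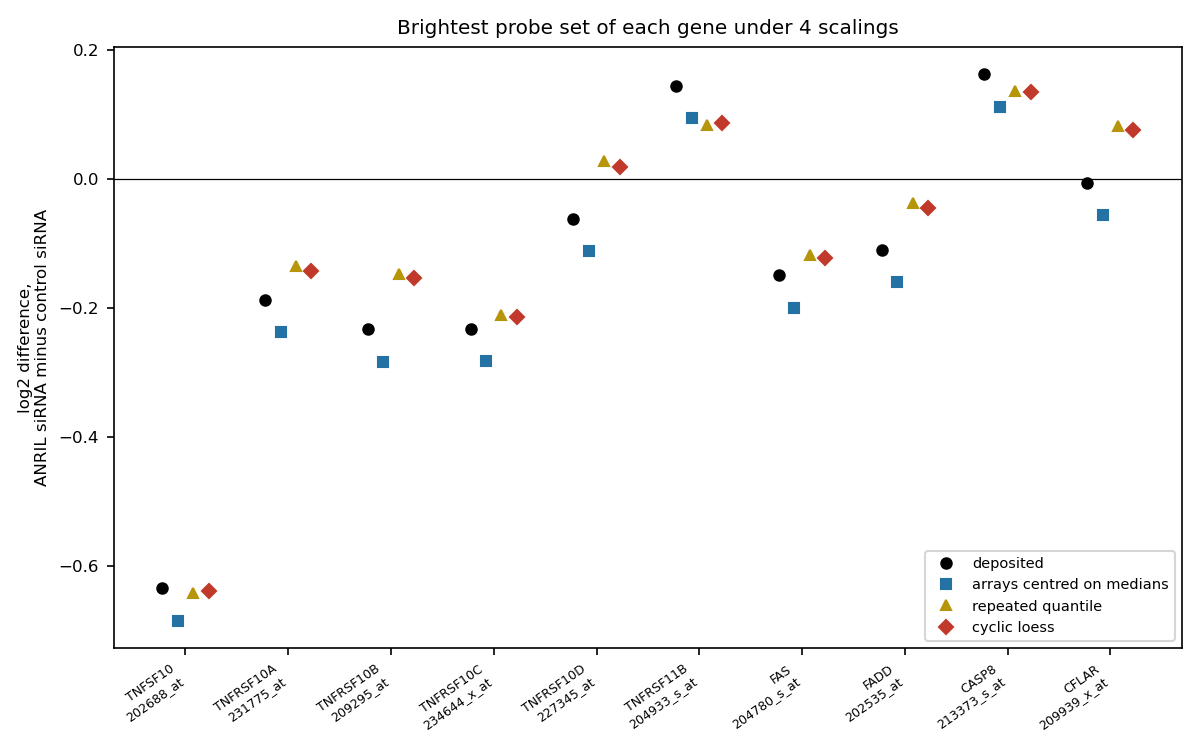
Log2 difference, ANRIL siRNA minus control siRNA (vertical axis), at the brightest probe set of each member (horizontal axis) in the deposited values, with arrays centred on their medians, with quantile normalization repeated, and with cyclic loess. TNFSF10 stays between −0.69 and −0.63 under all of them, TNFRSF10B lies at −0.23 as deposited and −0.15 after cyclic loess, and TNFRSF10D and CFLAR cross 0.

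The rest of the pathway was described at gene level, with each gene at its brightest probe set. At this level limma with the constant prior called 0% of the 19775 genes. The trended robust prior called 2.15% lower and 0.582% higher, among them TNFSF10 (adjusted p = 0.000559) and TNFRSF10B (adjusted p = 0.00891). After cyclic loess with that prior, 0.379% of genes were called lower and 0.298% higher. TNFSF10 was still called (limma adjusted p = 0.00485) and TNFRSF10B was not (limma adjusted p = 0.0664). Groups did not overlap at 12.8% of all genes with ANRIL siRNA lower and at 10.6% with ANRIL siRNA higher, and 51.4% of all genes were lower and 48.6% higher. Of 35 partners in the extrinsic pathway 29 were measured here, of which 22 were lower (median −0.04) and 5 had separate groups in that direction. Of these partners 28 lay above the median signal, where 61% of all probe sets were lower. With either prior 0 partners were called, and after cyclic loess 13 of 29 were lower. The 4 of smallest p were HTRA2, a mitochondrial protease that relieves caspase inhibition (−0.21 ± 0.07), the executioner caspase CASP6 (−0.19 ± 0.07), CASP8AP2, which binds caspase-8 (−0.14 ± 0.07), and BID, which links caspase-8 to mitochondria (−0.12 ± 0.06). FASLG, the ligand of FAS, differed by 0.01 ± 0.08 at the 34.2 percentile of signal.

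Of 16 other TNF superfamily ligands 14 were measured, of which 5 were lower and 9 higher (median 0.02). The trended robust prior called 1 of them, TNFSF15, an endothelial ligand also known as VEGI. Its difference was −0.30 ± 0.08 with separate groups, and −0.22 after cyclic loess. It was called with that prior only (limma adjusted p = 0.0123, against 0.154 with the constant prior and 0.0838 with the trended robust prior after cyclic loess). The next were TNFSF14 (LIGHT, 0.23 ± 0.09), TNFSF11 (0.16 ± 0.08), the RANKL that TNFRSF11B also binds, and LTA (0.11 ± 0.06), all below the median of signal. Of 18 other TNF receptors 12 were higher and 6 lower (median 0.05), and 4 had separate groups with ANRIL siRNA higher. With either prior 0 were called. The 4 of smallest p were CD27 (0.27 ± 0.06), TNFRSF8 (0.28 ± 0.07), TNFRSF17 (0.12 ± 0.06) and RELT (0.13 ± 0.07).

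Of 20 genes known to regulate TRAIL or its receptors 17 were measured, and 15 were lower (median −0.11, or −0.04 after cyclic loess, where 12 were lower). All 17 lay at the 70.4 to 99.1 percentiles of signal. In the eighth, ninth and brightest signal deciles 39.3%, 20.7% and 12.9% of all probe sets were higher in ANRIL siRNA cells. MDM2, a ubiquitin ligase, had 10.73, 10.70 and 10.73 in ANRIL siRNA cells, against 10.96, 11.08 and 10.998 in control siRNA cells. The groups were separate and the difference was −0.30 ± 0.06. IRF9, the DNA-binding subunit of the interferon-activated complex ISGF3, had 9.27, 9.20 and 9.25 in ANRIL siRNA cells, against 9.53, 9.56 and 9.32 in control siRNA cells, a difference of −0.23 ± 0.07 with separate groups. FOXO3, a forkhead factor known to regulate TNFSF10, differed by −0.20 ± 0.06 and NFKB1 by −0.15 ± 0.06. With the trended robust prior limma called MDM2 (adjusted p = 0.00282) and FOXO3 (adjusted p = 0.0460). It did not call IRF9 (limma adjusted p = 0.0563) or NFKB1 (limma adjusted p = 0.145). After cyclic loess with that prior the limma adjusted p was 0.0193 for MDM2, 0.204 for FOXO3, 0.215 for IRF9 and 0.407 for NFKB1. The differences after cyclic loess were −0.21 for MDM2, −0.12 for FOXO3, −0.16 for IRF9 and −0.08 for NFKB1. IRF1, an interferon-induced transcription factor, differed by 0.0021 ± 0.07.

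The genes whose pattern over the 6 arrays was most like that of TNFSF10 were found by the root mean square distance between log2 profiles, each centred on its own mean, among 13020 genes above the median signal. The profile of TNFSF10 at 202688_at had a root mean square of 0.345 around its mean. The nearest were the chemokine receptor CXCR4 at a distance of 0.0819, the sterol exporter ABCG1 at 0.0915, the metalloproteinase ADAMTS18 at 0.104, CEP68 at 0.108 and DEPP1 at 0.109. CXCR4 had 9.37, 9.26 and 9.06 in ANRIL siRNA cells, against 9.66, 10.04 and 9.53 in control siRNA cells, so ANRIL siRNA replicate 3 was lowest and control replicate 2 highest, as for TNFSF10 at 202688_at. At the other TNFSF10 probe sets ANRIL siRNA replicate 2 was lowest and control replicate 1 highest. The distance was taken over the same arrays on which TNFSF10 was singled out.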

How the data were processed

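The values deposited by the authors are log2 intensities of 54675 probe sets. RMA, affy and limma are the tools named, per the submitters' processing notes, without versions or filters. From these values 62 control probe sets were left out. Probe sets were named from GEO's platform annotation, updated by Entrez identifier to RefSeq symbols (GRCh38.p14). Of the probe sets tested, 41091 had 1 symbol (41037 matched RefSeq), 1801 several and 11721 none, and 2 with several symbols, one of them a member's, are given as other observations. Groups came from the sample titles.

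Differences, ANRIL siRNA minus control siRNA, were fitted in R 4.3.3 with limma 3.58.1 (lmFit, then eBayes with a constant prior and no covariate), with Benjamini-Hochberg adjustment over all probe sets or genes and a threshold of 0.05. All tests were two-sided. The code of the fit was run on simulated independent noise with known shifts. These shifts were larger than any member difference and had no trend with signal, so the run does not measure how well differences of the size reported are found. The members, gene lists, motifs and tests were chosen with earlier results of these data known. Named genes were all members, the 4 of smallest p in each pathway list, the 5 of nearest pattern and ANRIL; FASLG and IRF1 were added after their values were seen. Alternatives covered the prior, scaling, array weights, a signal filter, the replicate block, the probe set rule, the threshold and each array left out; leaving out arrays under the trended prior was added after the data were seen. The number of arrays limits the precision, with SEs of 0.0617 to 0.111 at member probe sets.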

Additional observations from a re-analysis of the deposited data

How the results depend on the processing

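With the constant prior, 0 probe sets of the array, 0 member probe sets and 0 genes of the wider lists were called in the deposited values, with the replicate block, after cyclic loess, with quantile normalization repeated, with array weights and without each array in turn (0 to 0). Other settings gave 344 probe sets with the trended robust prior, 78 with it after cyclic loess, 4 with arrays centred on their medians and 1 above the median signal only. Member probe sets called were 4, 3, 1 and 0 under these settings, and genes of the wider lists 3, 2, 0 and 0. At a threshold of 0.1 the constant prior still called 0. With the trended robust prior and 1 array left out, chosen after seeing the data, the probe sets called were 38, 885 and 96 without ANRIL siRNA replicates 1, 2 and 3 and 38, 4 and 450 without control siRNA replicates 1, 2 and 3, with 0 to 5 member probe sets and 0 to 7 genes of the wider lists. TNFRSF10B kept a call without ANRIL siRNA replicate 2 and without control siRNA replicate 3, and its adjusted p was 0.0945 to 0.232 without each of the other arrays. FAS at 215719_x_at was called without control siRNA replicate 3 (0.0287). The cause of these changes was not tested.

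The differences of the 3 TNFSF10 probe sets kept their sign under every alternative run. Of the 41 member probe sets, 9 changed sign under at least 1 of the 3 other scalings, 6 of them in CFLAR and the rest in TNFRSF10B (1556645_s_at), TNFRSF10D (227345_at) and FAS (233820_at). Among the brightest probe sets these were TNFRSF10D at 227345_at, at 0.0284 with quantile normalization repeated and 0.0190 after cyclic loess with either prior, and CFLAR at 209939_x_at, at 0.0821 and 0.0760 after the same scalings. With an array left out CFLAR ranged from −0.0304 to 0.0188, above 0 without ANRIL siRNA replicate 2 (0.0091) and without control siRNA replicate 3 (0.0188). The median over member probe sets was −0.06, and −0.10 to −0.04 with an array left out. Deviations of same-numbered arrays correlated at 0.061, 0.14 and −0.04, so the numbers were not taken as pairs. With the replicate block the adjusted p of the 3 TNFSF10 probe sets was 0.261 and no call changed.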

Other observations

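A pair of probe sets is annotated to both TNFRSF10C and LOC254896 and was left out of the counts above. At 210484_s_at the log2 values were 6.25, 6.34 and 6.50 in ANRIL siRNA cells and 6.71, 6.71 and 6.73 in control siRNA cells, a difference of −0.35 ± 0.08 (SE, n = 3 per group) with separate groups. At 210483_at they were 6.38, 6.43 and 6.40 in ANRIL siRNA cells and 6.45, 6.57 and 6.62 in control siRNA cells, a difference of −0.15 ± 0.07, also with separate groups. After cyclic loess the differences were −0.40 and −0.19. Which transcript these probe sets read was not analysed here.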
